A study of Mus musculus with 2 samples.

Results

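The cells described here are limb mesenchyme cells of the mouse hindlimb bud that carry transcripts of Osr1 or Osr2, the odd-skipped related zinc finger genes. They were chosen by raw counts of unique molecular identifiers (UMIs, each standing for 1 captured transcript). A mesenchyme gate kept barcodes with at least 1000 genes, at most 10% mitochondrial UMIs, at least 2 UMIs of Prrx1, no UMI of Epcam, Cdh5, Lbx1 or Csf1r, and under 2% globin UMIs. Within the gate, a cell was an Osr progenitor if Osr1 and Osr2 together gave at least 3 UMIs, Scx and Isl1 gave none, Hoxa13 and Hoxd13 together gave at most 1, and Sox9 was below 4 per 10000 UMIs. In dual-enSERT-1, 189 of 12386 gated cells met these criteria, a share of 1.53% (exact binomial 95% interval 1.32 to 1.76%). In dual-enSERT-2, 22 of 3750 gated cells met them, a share of 0.587% (0.368 to 0.887%).

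Single-cell RNA-seq was made from hindlimbs of FVB mouse embryos at stage E11.5, with 1 library for each reporter design. In dual-enSERT-1 the embryos carried, at the H11 safe-harbour site, an mCherry reporter under the reference ZRS and an eGFP reporter under the ZRS with the 404G>A change. The ZRS is the distant limb enhancer of Shh, so both reporters test where that enhancer is active. The dual-enSERT-2 genotype is written with the same pair of reporters, with the letter B at both ends and SI between them, and the labels used here do not define these letters. The design text speaks of 2 transgenic embryos, and no label says how many embryos went into each library. With 1 library per genotype there was no replicate and no test between genotypes, and genotype, embryo and preparation cannot be told apart. All intervals below cover counting error only, and UMIs of 1 cell are not independent of each other.

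Osr1 and Osr2 are transcription factors of embryonic connective tissue. In the limb bud they mark irregular connective tissue and its fibroblast progenitors, which lie between and around the muscle masses, tendons and cartilage. Such cells are known as sources of matrix and of signals for migrating muscle precursors, among them Hgf, which drives muscle precursors into the limb bud through the receptor Met. Meis1 and Meis2 are homeodomain factors of the proximal limb bud, whereas Msx1, Lhx2 and Lhx9 are factors of its distal mesenchyme.

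The promoters of 2 genes discussed below are shown so that the reading of the sequence around the start of transcription can be followed. They are RefSeq windows on GRCm38.p6, from 250 bases before to 50 bases after an annotated start, and are written 5′ to 3′ on the gene's strand. Nr2f1 encodes a nuclear receptor of embryonic patterning, and Hgf is the ligand named above. Capitals mark the core recognised by odd-skipped proteins, GCTACTG, or its reverse complement CAGTAGC.
Nr2f1 (chr13:78196400-78196699, minus strand): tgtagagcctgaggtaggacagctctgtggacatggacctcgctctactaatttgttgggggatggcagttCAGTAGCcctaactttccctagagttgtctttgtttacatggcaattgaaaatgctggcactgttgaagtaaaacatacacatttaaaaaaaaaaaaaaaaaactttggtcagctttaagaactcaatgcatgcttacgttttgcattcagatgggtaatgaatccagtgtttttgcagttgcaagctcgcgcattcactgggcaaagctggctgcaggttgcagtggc
Hgf (chr5:16553651-16553950, plus strand): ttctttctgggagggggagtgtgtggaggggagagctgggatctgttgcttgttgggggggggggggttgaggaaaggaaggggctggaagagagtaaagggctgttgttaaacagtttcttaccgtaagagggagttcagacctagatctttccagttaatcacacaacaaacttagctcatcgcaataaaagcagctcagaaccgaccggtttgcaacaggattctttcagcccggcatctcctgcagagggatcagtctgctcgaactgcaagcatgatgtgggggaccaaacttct
The Nr2f1 window held 1 match and the Hgf window none, which says only that these letters are absent from that window. RefSeq gives Nr2f1 another start, whose window (chr13:78198824-78199123) held no match. GCTACTG, read on both strands, occurred in 3.70% of 32851 RefSeq promoter windows of this length. It occurred in 1 of the 10 windows found for genes named as higher in the Osr progenitors than in gate-matched cells, and that window is the Nr2f1 window printed here. It occurred in none of the 9 windows of genes named as lower, and against the other gated cells in 1 of 15 windows of genes named as higher and 1 of 20 of genes named as lower. TGACAG, the core recognised by Meis proteins, occurred in 19.2% of all windows, in 0 of those 10 and in 2 of those 9. A match is a description of letters and not a binding site.

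The 2 libraries differed in depth and in cell content. After the filters on genes and mitochondrial UMIs, 17790 of 20508 barcodes remained in dual-enSERT-1 and 6683 of 8885 in dual-enSERT-2. The median depth of the Osr progenitors was 13152 UMIs (2760 to 43520) and 26481.5 UMIs (14198 to 53744), in this order of libraries. The other gated cells had medians of 15042 and 25915. Summed over the cells, the Osr progenitors gave 2656707 and 646262 UMIs, so 1 UMI equals 0.376 and 1.55 CPM, which scales a gene's UMI count by the summed depth of its cell group. The libraries shared 49 barcodes in all, 10 among gated cells and 0 among Osr progenitors. Scrublet, a doublet caller, marked 8 Osr progenitors of dual-enSERT-1 (4.23%) but 0 of dual-enSERT-2, beside 8.99% and 0.533% of gated cells. None were removed from the main comparisons.

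Of the 22 cells in dual-enSERT-2, 1 stood apart from its library. It held 20 UMIs of Xist, the RNA of the inactive X chromosome, together with 8 UMIs of the Y-linked gene Uty, and was the deepest Osr progenitor of that library at 53744 UMIs and 8600 genes. In dual-enSERT-2, 453 barcodes had at least 5 Xist UMIs after the first filters, of which 304 were erythroid and 2 were gated cells. In dual-enSERT-1 no barcode had more than 1. The Xist-bearing cell gave 245 of the 247 Galntl6 UMIs and 20 of the 21 Ntn1 UMIs of its group, so counts of called genes and several values of dual-enSERT-2 are also given without it.

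Most gated cells with Osr transcripts were kept out by the 4 negative criteria. In dual-enSERT-1, 2194 gated cells (17.7%) had at least 3 Osr UMIs, and 8.61% of these were Osr progenitors. In dual-enSERT-2, 167 gated cells (4.45%) had as many, and 13.2% of these were Osr progenitors. Scx, the tendon progenitor factor, excluded 80.4% and 82.0% of the cells with at least 3 Osr UMIs. Sox9, the cartilage factor, excluded 27.8% and 17.4%, and Isl1, a factor of the posterior hindlimb, 15.1% and 17.4%. Hoxa13 and Hoxd13, the autopod Hox genes, excluded 12.6% and 2.40%. Of all gated cells, 14.1% and 41.4% passed the 4 negative criteria whatever their Osr count. Therefore 2 comparators were used, the other gated cells (12197 and 3728) and the gate-matched cells, which passed the 4 negative criteria but held no Osr1 or Osr2 UMI (1228 and 1398).

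Most Osr progenitors held UMIs of only 1 of the Osr genes, though at these counts a transcript that is present can go unseen. In dual-enSERT-1, 93 Osr progenitors had Osr1 UMIs without Osr2, 41 had Osr2 without Osr1, and 55 had both. In dual-enSERT-2, 5 had Osr1 alone, 12 Osr2 alone and 5 both. The summed Osr count ran from 3 to 16 with a median of 4 in dual-enSERT-1, and from 3 to 7 with a median of 3 in dual-enSERT-2, so most cells lay close to the threshold. Osr1 was at 210 CPM in the Osr progenitors and 24.7 CPM in the other gated cells of dual-enSERT-1, and at 46.4 and 4.22 CPM in dual-enSERT-2. Osr2 was at 151 and 47.0 CPM in dual-enSERT-1, and at 83.6 and 9.24 CPM in dual-enSERT-2. These levels chose the cells and are given as a description.

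**Figure D1:**
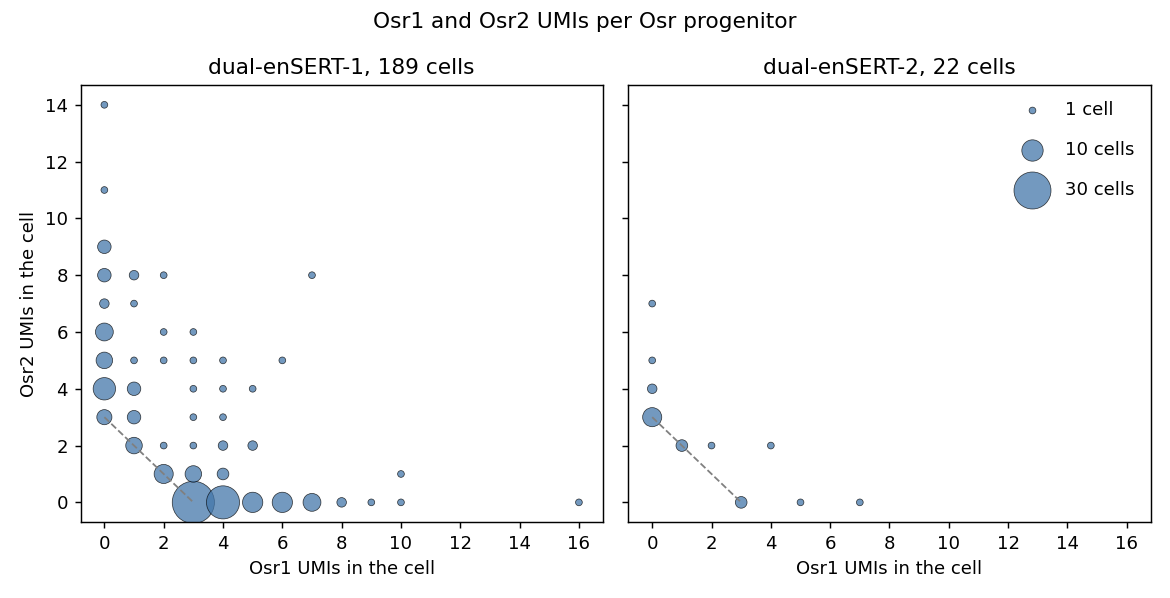
Osr1 UMIs (x axis) and Osr2 UMIs (y axis) of each Osr progenitor in the 2 libraries, with the area of a point showing the number of cells and the dashed line marking the threshold of 3 UMIs. The 93 and 5 cells on the x axis had Osr1 alone and the 41 and 12 on the y axis had Osr2 alone.

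The other genes of the rule followed from it. Scx and Isl1 were at 0 in the Osr progenitors of both libraries, and at 87.2 and 16.4 CPM in the other gated cells of dual-enSERT-1 and 25.1 and 11.6 CPM in those of dual-enSERT-2. Hoxd13 was at 5.65 CPM against 79.7 CPM in dual-enSERT-1, and at 0 against 25.7 CPM in dual-enSERT-2. Hoxa13 was at 1.13 against 83.2 CPM and at 3.09 against 25.7 CPM. Sox9 was lower than in the other gated cells in dual-enSERT-1 (70.0 against 236 CPM) but not in dual-enSERT-2 (99.0 against 88.3 CPM). Prrx1, the limb mesenchyme factor of the gate, was at 858 against 812 CPM and at 783 against 749 CPM.

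The label of these cells was checked against Hgf, the proteoglycan gene Lum and the collagen gene Col12a1. These markers come with the label, so the values describe the cells and support nothing. In dual-enSERT-1, Hgf was at 37.3 CPM in the Osr progenitors, 13 CPM in the other gated cells and 5.34 CPM in the gate-matched cells, a ratio of 2.86 (2.31 to 3.49) to the other gated cells. Lum was at 82.8, 12.3 and 2.77 CPM in the same order, a ratio of 6.72 (5.83 to 7.71), and 67 of the 189 cells had a UMI of it. Col12a1 was at 34.3, 11.0 and 5.41 CPM, a ratio of 3.11 (2.49 to 3.84). All 3 markers were thus higher in the Osr progenitors of dual-enSERT-1 than in either comparator.

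In dual-enSERT-2 the same markers were sparse. Hgf gave 9 UMIs in 6 of the 22 cells, at 13.9 CPM against 8.91 CPM in the other gated cells and 4.24 CPM in the gate-matched cells, with a ratio of 1.56 (0.712 to 2.98) to the other gated cells and 3.29 (1.47 to 6.43) to the gate-matched cells. Lum gave 3 UMIs, at 4.64 against 2.95 and 2.46 CPM, with a ratio of 1.57 (0.322 to 4.64) to the other gated cells. Col12a1 gave 4 UMIs in 2 cells, at 6.19 against 0.694 and 0.624 CPM, and 1.69 CPM without the Xist-bearing cell. Differences in Hgf and Lum from the other gated cells were not detectable at this depth. Dcn, which encodes the matrix proteoglycan decorin, was at 18.1 against 3.82 CPM in dual-enSERT-1 and gave no UMI in the Osr progenitors of dual-enSERT-2, against 0.736 CPM in the other gated cells.

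The share of cells with a marker UMI was compared after each cell was thinned to 5000 UMIs. In dual-enSERT-1, Hgf was then seen in 16.0% of Osr progenitors, 5.36% of other gated cells and 2.25% of gate-matched cells, and was seen in 31.2%, 12.2% and 4.40% before thinning. Lum was seen in 23.0%, 4.19% and 1.67% after thinning, and in 35.4%, 8.71% and 2.52% before. Erythroid cells, which should lack both transcripts, showed Hgf in 0 of 204 cells after thinning, which allows a share of up to 1.47%, and Lum in 0 of 204. Their median depth was 19369 UMIs against 13152 UMIs in the Osr progenitors. In dual-enSERT-2, 3 of the 22 cells kept an Hgf UMI (13.6%, 2.91 to 34.9%), beside 3.88% of other gated cells and 1.96% (1.27 to 2.88%) of gate-matched cells. Only 1 of the 22 kept a Lum UMI (4.55%, 0.115 to 22.8%), beside 1.46% and 1.33%.

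Cells just inside and just outside the Osr threshold were close in some genes and apart in others. In dual-enSERT-1 the 58 cells with exactly 3 Osr UMIs had 548 CPM of Meis2, and the 122 cells that met all other criteria but had 2 Osr UMIs had 568 CPM. Meis1 was at 206 and 215 CPM in these groups, Hgf at 26.6 and 18.9 CPM, and Col12a1 at 25.4 and 24.9 CPM, whereas Lum was at 85.9 (67.1 to 108) and 38.3 (29.4 to 49.0) CPM and Bnc2 at 278 and 195 CPM. Over cells with 0, 1 and 2 Osr UMIs, Meis2 was at 60.8, 365 and 568 CPM and Msx1 at 444, 161 and 54.1 CPM. In dual-enSERT-2 the 14 cells with 3 Osr UMIs had 337 CPM of Meis2 and 69.0 CPM of Msx1, and the 20 cells with 2 Osr UMIs had 234 and 29.0 CPM. Bnc2 was at 109 (78.1 to 148) and 26.9 (14.3 to 46.0) CPM in these cells.

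Against all other gated cells, the Osr progenitors had higher levels of proximal limb factors and lower levels of distal limb factors. A gene entered the comparison if it had in each library a level of at least 20 CPM in 1 or both cell groups. It was called higher or lower if its log2 ratio, with 1 CPM added to both levels, was at least 0.58 in size and of the same direction in both libraries. By this rule 66 of 6845 genes were higher, or 0.964%, and 53 were lower, or 0.774%. Without the Xist-bearing cell 50 genes were higher, 48 of them shared with the 66, and 51 were lower, 47 of them shared. With the highest cell of each gene left out, 28 were higher and 80 were lower. The other gated cells kept all their cells in this setting, which by itself moves counts from higher to lower. The criteria on Scx, Isl1, Hox13 genes and Sox9 are part of this contrast.

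Meis1 and Meis2 were higher in the Osr progenitors of both libraries, taken as a group. Meis2 was at 525 CPM against 154 CPM in the other gated cells of dual-enSERT-1, a ratio of 3.41 (3.23 to 3.60), and at 402 against 179 CPM in dual-enSERT-2, a ratio of 2.25 (1.98 to 2.55). Meis1 was at 183 against 61.3 CPM in dual-enSERT-1, a ratio of 2.98 (2.72 to 3.27), and at 145 against 54.5 CPM in dual-enSERT-2, a ratio of 2.67 (2.15 to 3.27). Without the Xist-bearing cell the log2 ratio in dual-enSERT-2 was 1.10 for Meis2 and 0.93 for Meis1. The excess was not shared by all Osr progenitors. In dual-enSERT-1 the 41 cells with Osr2 UMIs alone had 32.6 CPM of Meis2 and 30.4 CPM of Meis1, below the other gated cells, and the 55 cells with both Osr genes had 158 CPM of Meis2. Of the 8 proximal limb genes tested, 4 were higher and 0 lower, or 3 and 0 without the Xist-bearing cell. Shox2, a factor of proximal limb elements, was among them. Shox2 was at 823 against 313 CPM and at 368 against 220 CPM. The median log2 ratio of the 8 genes was 0.43 and 0.46, beside -0.03 and 0.01 over all tested genes.

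Bnc2, a zinc finger gene expressed in mesenchyme, was at 237 CPM in the Osr progenitors and 72.4 CPM in the other gated cells of dual-enSERT-1, and at 122 and 27 CPM in dual-enSERT-2. Nr2f1 was at 64.7 against 17.2 CPM and at 35.6 against 13.2 CPM, with a log2 ratio in dual-enSERT-2 of 1.37, or 0.69 without the Xist-bearing cell. Both genes were thus higher in each library with or without that cell.

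Eya4, which encodes a transcriptional cofactor, was at 139 against 58.7 CPM and at 89.7 against 26 CPM. Of the 12 muscle genes, 6 were at 0 in the Osr progenitors of both libraries. Pax3, Pax7, Myf5 and Myod1, which define muscle precursors and myoblasts, gave no UMI in either library, and Lbx1 is 0 by the gate.

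Slitrk6, a gene of a neuronal type transmembrane protein, was at 67.0 against 12.6 CPM and at 26.3 against 8.31 CPM. Ednra, the endothelin receptor gene of mesenchyme, was at 179 against 54.0 CPM and at 61.9 against 27.4 CPM. Pag1, a gene of a membrane adaptor protein, was at 93.3 against 37.7 CPM and at 30.9 against 12.6 CPM. The 15 genes picked as higher by the naming rule were checked with the highest cell of each gene left out. The minimum of 20 CPM was not applied again. Of these genes, 9 kept a log2 ratio of at least 0.58 in both libraries. Galntl6, Ntn1, Plxna4, Ror1, Foxp1 and Slit2 did not. Galntl6 was at 67.4 against 11.7 CPM in dual-enSERT-1, and at 382 against 13.2 CPM in dual-enSERT-2, where it was at 3.38 CPM without the Xist-bearing cell. Ntn1, the guidance cue netrin, was at 76.8 against 20.5 CPM and at 32.5 against 2.16 CPM, or 1.69 CPM without that cell.

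**Figure D2:**
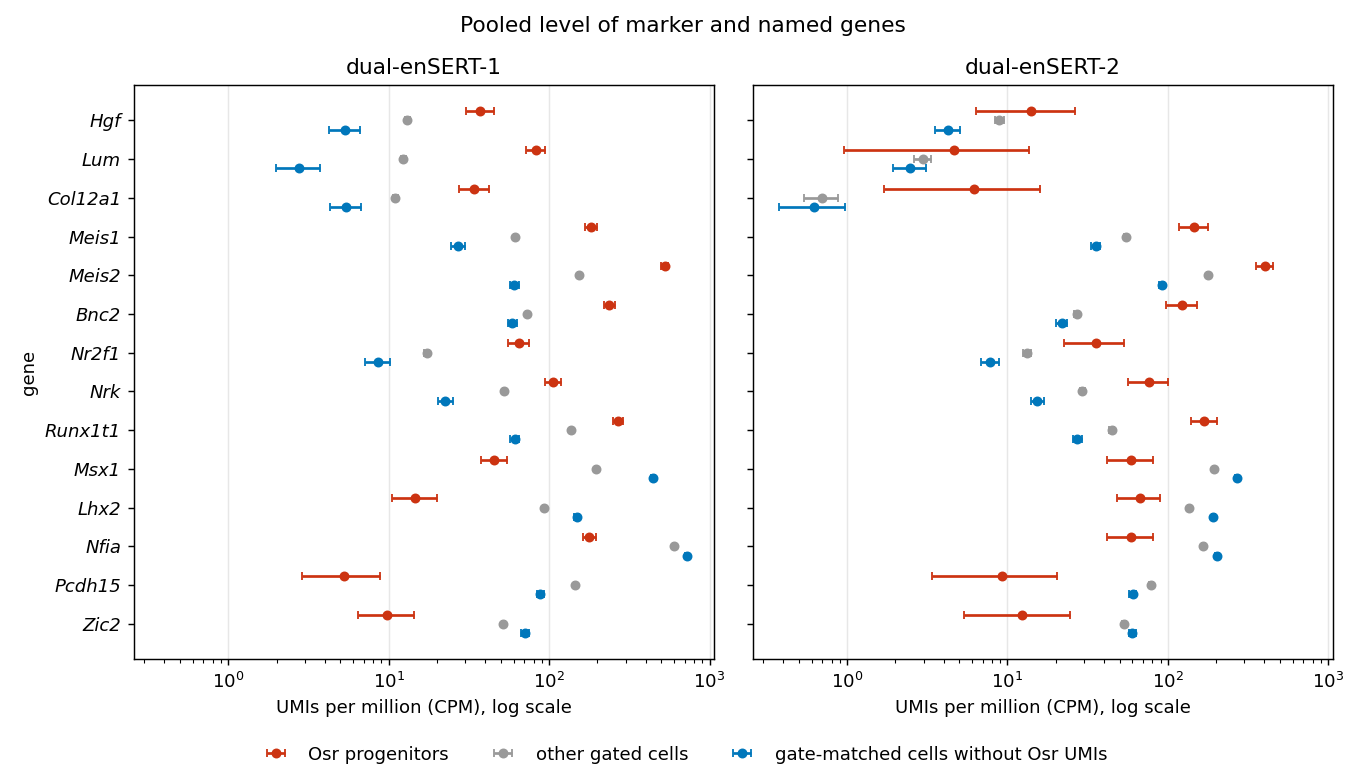
Pooled level (x axis, CPM on a log scale) of marker genes and of named genes in the Osr progenitors, the other gated cells and the gate-matched cells without Osr UMIs of each library, with exact Poisson 95% intervals as bars. Meis1, Meis2, Bnc2, Nr2f1, Nrk and Runx1t1 lie to the right in the Osr progenitors of both libraries, and Msx1, Lhx2, Nfia, Pcdh15 and Zic2 lie to the left.

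Genes lower in the Osr progenitors were led by Pcdh15, a protocadherin gene, at 5.27 CPM against 145 CPM in dual-enSERT-1 and 9.28 against 78.5 CPM in dual-enSERT-2. Its ratios were 0.0364 (0.0199 to 0.0611) and 0.118 (0.0434 to 0.257). Msx1, a homeobox gene of distal mesenchyme that responds to BMP, was at 45.5 against 195 CPM and at 58.8 against 194 CPM, with ratios of 0.233 (0.193 to 0.279) and 0.303 (0.214 to 0.416). Lhx2, a LIM homeodomain factor through which distal cells respond to FGF, was at 14.7 against 92.4 CPM and at 66.5 against 136 CPM. Zic2, a zinc finger gene, was at 9.79 against 51.8 CPM and at 12.4 against 52.9 CPM. Zic5, from the same family, was at 7.90 against 55.5 CPM and at 24.8 against 66.7 CPM. All 15 genes named as lower kept the call with the highest cell of each gene left out. That cell was left out of the Osr progenitors only, which lowers their level. A lower call could thus hardly be lost, and this check does not show how firm these calls are.

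Nfia, a nuclear factor gene, was at 178 against 599 CPM in dual-enSERT-1 and at 58.8 against 167 CPM in dual-enSERT-2, and was at 23.6 CPM without the Xist-bearing cell. Sox6, a cartilage factor that acts beside Sox9, was at 60.6 against 127 CPM and at 3.09 against 20.5 CPM, the latter from 2 UMIs. The lower Sox6 level was not shared by all Osr progenitors. In dual-enSERT-1 those with Osr2 UMIs alone had more Sox6 than the other gated cells, as given below. Hey1, a target of Notch signalling, was at 4.89 against 24.1 CPM and at 3.09 against 27.9 CPM, also from 2 UMIs in dual-enSERT-2. Pdzd2 was at 15.8 against 123 CPM and at 7.74 against 42.1 CPM. Pmaip1, a pro-apoptotic gene, was at 7.15 against 89.8 CPM and at 13.9 against 38.9 CPM. Hibadh (log2 ratios -1.12 and -1.45), Crmp1 (-1.98 and -1.08), Slc1a3 (-1.47 and -1.03), Unc5b (-1.23 and -1.0) and Greb1 (-1.16 and -0.96) made up the rest.

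Among the 8 distal limb genes tested, 4 were lower and 0 higher, with or without the Xist-bearing cell, and the median log2 ratio of the 8 was -1.55 and -0.78. Beside Msx1 and Lhx2 these were Lhx9, at 62.9 against 214 CPM and 125 against 230 CPM, and Fgf10, the mesenchymal ligand that maintains the apical ridge, at 23.7 against 59.1 CPM and 65.0 against 105 CPM. Of 8 genes of the FGF response tested, 3 were lower and 0 higher, and 4 were lower without the Xist-bearing cell. Dusp6, a feedback inhibitor of FGF signalling, was at 47.8 against 92.7 CPM and 82.0 against 158 CPM. Etv4 was at 10.2 against 34.5 CPM and 30.9 against 50.4 CPM, and Spry1 at 11.7 against 23.4 CPM and 18.6 against 34.2 CPM. Of 7 genes of the BMP response, Msx1 alone was called, and Bambi joined it without the Xist-bearing cell.

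Of 16 connective tissue regulators tested, Foxp1, Foxp2 and Meox2 were higher and Prrx2 and Nfia lower. Without the Xist-bearing cell Tbx3, Foxp2 and Meox2 were higher and Nfia was lower. Tcf7l2, a marker of muscle connective tissue fibroblasts, was at 333 against 415 CPM in dual-enSERT-1 and 350 against 273 CPM in dual-enSERT-2, and was not called. Of 9 connective tissue matrix genes tested, Col3a1 alone was higher, at 369 against 150 CPM and 193 against 120 CPM, and 0 were called without the Xist-bearing cell. Col1a1 was at 61.0 against 36.2 CPM and 17.0 against 12.6 CPM. Pdgfra, the receptor gene of fibroblast lineages, was at 239 against 164 CPM and 115 against 89.3 CPM.

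Of 11 genes for cues to muscle and vessel cells, Igf1, Vegfc, Ntn1, Slit2 and Sema3a were higher and Fgf10 was lower. Sema3a, a repulsive guidance cue, was at 269 against 150 CPM and 207 against 97.0 CPM, and was the only one of these called higher without the Xist-bearing cell. Igf1 was at 119 against 66.7 CPM in dual-enSERT-1 and 118 against 35.8 CPM in dual-enSERT-2, or 50.6 CPM without that cell. Vegfc was at 47.8 against 23.1 CPM and 44.9 against 23.0 CPM, or 15.2 CPM without it.

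Several lists showed no called gene in this contrast. These were the posterior limb list (0 of 7, or 1 of 7 without the Xist-bearing cell, namely Tbx3), the anterior limb list (0 of 3), the zeugopod Hox genes (0 of 7), hindlimb identity (0 of 5), the Hedgehog response (0 of 8), the WNT response (0 of 5), retinoic acid (0 of 4), S phase (0 of 15), G2 and mitosis (0 of 17), immediate early genes (0 of 3), joint (0 of 2) and perivascular markers (0 of 2). Pitx1, the hindlimb identity factor, was at 461 against 352 CPM and 317 against 335 CPM. Tbx4, its target and a hindlimb factor, was at 165 against 190 CPM and 132 against 128 CPM. The only tested dorsal gene, Lmx1b, was called higher, at 194 against 109 CPM and 38.7 against 24.9 CPM. Of 5 cartilage genes only Sox6 was called.

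Of the markers of other cell types, no gene of the endothelial, ectoderm, macrophage, neural crest and glia, or neuron lists reached 20 CPM in both libraries. In dual-enSERT-1 the summed endothelial genes were at 28.2 against 27.5 CPM in the other gated cells, the ectoderm genes at 9.41 against 20.6 CPM, the macrophage genes at 8.28 against 8.94 CPM, the neural crest and glia genes at 6.02 against 7.95 CPM and the neuron genes at 18.1 against 29.7 CPM. The same sums in dual-enSERT-2 were 12.4 against 25.0 CPM, 13.9 against 11.4 CPM, 3.09 against 6.15 CPM, 3.09 against 5.02 CPM and 21.7 against 16.7 CPM. The muscle and tendon lists, in contrast, were higher in sum. The 12 muscle genes summed to 97.1 against 48.2 CPM in dual-enSERT-1 and to 41.8 against 11.3 CPM in dual-enSERT-2, with Pax3, Pax7, Myf5 and Myod1 at 0 as given above. The 12 tendon genes summed to 144 against 65.9 CPM and to 57.3 against 17.3 CPM, with 2 of them at 0 in both libraries. On each of the muscle and tendon lists 1 gene reached 20 CPM in both libraries and was called higher. The part of muscle or tendon RNA in the other differences was not tested.

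The gate-matched cells share the negative criteria of the Osr progenitors, so this contrast is on Osr transcripts and on what goes with them. The criteria cap Hoxa13 but do not level it. After thinning, Hoxa13 was seen in 0.535% of Osr progenitors and 7.25% of gate-matched cells of dual-enSERT-1. In dual-enSERT-2 it was seen in 0 of 22 and in 2.59%. Hoxd13 was seen in 3.21% and 3.13% of these groups in dual-enSERT-1, and Sox9 in 27.3% and 30.4%. By the same call rule 121 of 6842 genes were higher in the Osr progenitors, or 1.77%, and 84 were lower, or 1.23%. Without the Xist-bearing cell 97 were higher, 95 of them shared, and 82 were lower, 79 of them shared. With the highest cell of each gene left out of the Osr progenitors only, 70 were higher and 110 were lower, a shift that the setting itself favours. Meis2 and Msx1 differed more from these cells than from the other gated cells. Meis2 was at 525 against 60.8 CPM in dual-enSERT-1, a ratio of 8.63 (7.94 to 9.39), and at 402 against 91.4 CPM in dual-enSERT-2, a ratio of 4.40 (3.86 to 5.0). Msx1 was at 45.5 against 444 CPM, a ratio of 0.103 (0.0850 to 0.123), and at 58.8 against 268 CPM, a ratio of 0.219 (0.155 to 0.301).

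Of the 12 genes picked as higher by the naming rule, 10 kept a log2 ratio past the limit with each gene's highest cell left out. Ntn1 and Galntl6 did not, and the minimum of 20 CPM was not applied again. Nrk, an X-linked kinase gene, was at 106 against 22.5 CPM in dual-enSERT-1 and 75.8 against 15.3 CPM in dual-enSERT-2, with ratios of 4.72 (4.02 to 5.54) and 4.94 (3.60 to 6.64). Runx1t1, a transcriptional corepressor gene, was at 270 against 61.3 CPM and 169 against 27.3 CPM. Meox2, a homeobox gene of limb muscle and connective tissue, was at 160 against 42.5 CPM and 51.1 against 11.4 CPM. Cxcl12, the chemokine that attracts Cxcr4-bearing muscle precursors, was at 69.6 against 18.3 CPM and 72.7 against 18.7 CPM, with ratios of 3.81 (3.15 to 4.61) and 3.89 (2.83 to 5.24). Nr2f1, whose promoter is printed above, was at 64.7 against 8.57 CPM and 35.6 against 7.82 CPM, or 21.9 CPM without the Xist-bearing cell. Ror1 had log2 ratios of 2.42 and 1.95, or 1.16 in dual-enSERT-2 without that cell.

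Rbfox3, a splicing factor gene, was at 3.01 CPM against 24.9 CPM in the gate-matched cells of dual-enSERT-1 and gave no UMI against 23.5 CPM in dual-enSERT-2, where it was at least 5.05-fold lower by the limit of 3 UMIs over the group. Cntn4 was at 15.1 against 121 CPM and 7.74 against 34.1 CPM, and Kctd8 at 8.28 against 59.4 CPM and 4.64 against 31.5 CPM. Ptprt had log2 ratios of -2.66 and -2.95. All 12 genes picked as lower by that rule kept the call with the highest cell of each gene left out. Here too the cell was left out of the Osr progenitors only, so a lower call could hardly be lost.

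**Figure D3:**
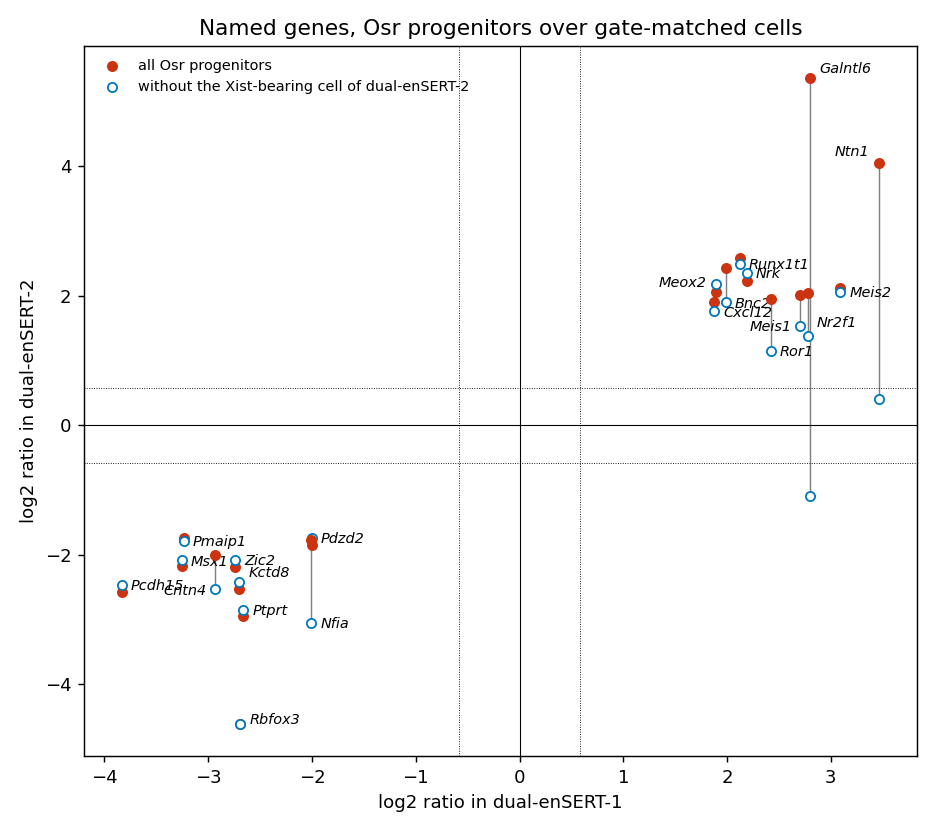
Log2 ratio of the Osr progenitors to gate-matched cells in dual-enSERT-1 (x axis) and dual-enSERT-2 (y axis) for genes named in the text as higher or lower, with all 22 cells of dual-enSERT-2 (filled) and without its Xist-bearing cell (open), and dotted lines at 0.58 and -0.58. Galntl6 and Ntn1 leave the upper right region without that cell, and the other named genes stay past the lines.

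Genes of anterior mesenchyme were lower and some genes of posterior mesenchyme higher than in the gate-matched cells. Of 5 anterior genes tested all 5 were lower, with or without the Xist-bearing cell. Asb4 was at 87.3 against 518 CPM and 398 against 788 CPM, and Gli3, the Hedgehog pathway repressor, at 193 against 340 CPM and 254 against 445 CPM. Pcdh17, a protocadherin gene, was another of them. Of 6 posterior genes 3 were higher and 0 lower, with or without that cell. Hand2, the factor that activates Shh in posterior mesenchyme, was at 249 against 99.3 CPM and 145 against 64.9 CPM. Dlk1 was at 207 against 33.9 CPM and 77.4 against 22.6 CPM, and Tbx3 at 60.6 against 35.9 CPM and 40.2 against 11.9 CPM. Of 7 genes of the Hedgehog response only Ptch1 was called, at 128 against 68.3 CPM and 145 against 86.9 CPM. Hand2 and Ptch1 were not called against all other gated cells, where Hand2 was at 191 and 145 CPM and Ptch1 at 143 and 145 CPM. No anterior gene was called there, and of the posterior genes only Tbx3, when the Xist-bearing cell was left out. The anterior list summed to 1025 and 1369 CPM in the gate-matched cells and to 576 and 925 CPM in the other gated cells. The posterior list summed to 441 and 376 CPM and to 738 and 611 CPM.

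Connective tissue regulators were called more widely in this contrast, with 6 of 16 higher and 2 lower, or 5 and 2 without the Xist-bearing cell. Twist2, a mesenchymal basic helix-loop-helix factor, was at 94.1 against 33.2 CPM and 48.0 against 26.2 CPM, and Tbx18 at 86.6 against 45.8 CPM and 77.4 against 36.4 CPM. The others were Tbx3, Foxp1, Foxp2 and Meox2. Prrx2, a partner of Prrx1, was lower at 169 against 542 CPM and 201 against 436 CPM. Of 11 genes for cues to muscle and vessel cells 6 were higher, and 3 of 10 without the Xist-bearing cell, namely Cxcl12, Igf2 and Sema3a. Of 7 genes of the BMP response 3 were lower, namely Id3, Msx1 and Bambi, and Id3 was at 238 against 462 CPM and 218 against 377 CPM. Of 8 genes of the FGF response 4 were lower. Of 4 retinoic acid genes Cyp26b1 and Crabp1 were lower, Crabp1 at 153 against 505 CPM and 449 against 793 CPM. Among 8 proximal genes 4 were higher, with a median log2 ratio of 0.62 and 0.47, and among 8 distal genes 4 were lower, with a median of -1.55 and -1.08.

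The Osr progenitors were then compared among themselves by the Osr gene they carried. Cells with at least 3 Osr1 UMIs and none of Osr2 are called Osr1-led (93 and 5 cells), and those with at least 3 Osr2 UMIs and none of Osr1 are called Osr2-led (41 and 12 cells). By the same call rule 212 of 6814 genes were higher in Osr1-led cells, or 3.11%, and 205 were lower, or 3.01%. Without the Xist-bearing cell 222 were higher and 258 lower, and 158 and 171 of these were shared with the calls that include it. The 5 and 12 cells of dual-enSERT-2 make these counts rest on few cells, so the gated cells that are not Osr progenitors were split in the same way (377 and 878 cells of dual-enSERT-1 and only 21 and 79 of dual-enSERT-2). There 88 of 6893 tested genes were higher and 95 lower. Of the 212 and 205 genes called in the Osr progenitors, 45 and 38 were called there as well, so most were not.

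The Meis genes went with Osr1. Meis2 was at 885 CPM in Osr1-led and 32.6 CPM in Osr2-led progenitors of dual-enSERT-1, a ratio of 27.2 (16.4 to 48.7), and at 158 CPM in cells with both. In dual-enSERT-2 it was at 1076 and 182 CPM, a ratio of 5.90 (4.37 to 8.06), and at 229 CPM in cells with both. Meis1 was at 293 against 30.4 CPM and at 419 against 26.9 CPM, or 320 against 26.9 CPM without the Xist-bearing cell. In the gated cells that are not Osr progenitors, Meis2 was at 858 against 124 CPM and 892 against 363 CPM, and Meis1 at 280 against 73.0 CPM and 355 against 88.9 CPM. The direction was therefore the same in cells outside the rule, with smaller ratios for Meis2 of 6.93 (6.57 to 7.31) and 2.45 (2.20 to 2.73).

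Tbx2 and Tbx3, related T-box repressor genes, also went with Osr1. Tbx3 was at 97.2 CPM in Osr1-led progenitors of dual-enSERT-1 and gave no UMI in Osr2-led ones, so it was at least 14.9-fold higher by the limit of 3 UMIs over the group. In dual-enSERT-2 it was at 99.7 against 8.97 CPM, the latter from 3 UMIs, a ratio of 11.1 (3.14 to 59.9). Tbx2 was at 64.1 against 2.17 CPM in dual-enSERT-1, the latter from 1 UMI, a ratio of 29.5 (5.16 to 1180). Tbx2 gave 5 UMIs in Osr1-led and none in Osr2-led progenitors of dual-enSERT-2, at least 3.70-fold higher. In the cells outside the rule Tbx3 was at 93.5 against 6.16 CPM and 82.7 against 1.22 CPM. In the Osr1-led progenitors of dual-enSERT-2 Tbx3 was at 155 CPM when the Xist-bearing cell was left out. Nr2f1 was at 102 against 8.69 CPM and at 106 against 15 CPM in the progenitors, or 62.0 against 15 CPM without that cell. Id1, a target of BMP signalling, was at 280 against 97.8 CPM and 279 against 59.8 CPM, and Id2 and Id3 were higher as well, 3 of the 6 BMP response genes tested.

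Genes that went with Osr2 included Ebf1, Tbx15 and Zeb2. Ebf1, a factor of mesenchymal and fat lineages, was at 76.8 CPM in Osr1-led and 1221 CPM in Osr2-led progenitors of dual-enSERT-1, a ratio of 0.0629 (0.0507 to 0.0773), and at 140 against 338 CPM in dual-enSERT-2, a ratio of 0.413 (0.246 to 0.662). Tbx15, a T-box gene of limb mesenchyme, was at 369 against 1048 CPM and 399 against 649 CPM. Zeb2, a repressor of epithelial genes, was at 5.63 against 161 CPM in dual-enSERT-1, and at 6.64 CPM from 1 UMI against 35.9 CPM in dual-enSERT-2, with a ratio of 0.185 (0.00433 to 1.25). In the cells outside the rule Ebf1 was at 214 against 1100 CPM and 141 against 237 CPM, Tbx15 at 346 against 967 CPM and 243 against 815 CPM, and Zeb2 at 4.52 against 101 CPM and 9.73 against 53.4 CPM.

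Cartilage genes moved with this split in the Osr progenitors of dual-enSERT-1, but not clearly in those of dual-enSERT-2. Sox9, which the rule caps but does not remove, was at 28.9 CPM in Osr1-led and 202 CPM in Osr2-led progenitors of dual-enSERT-1. In dual-enSERT-2 Sox9 was at 73.1 against 114 CPM, a ratio of 0.643 (0.296 to 1.28). Sox6 was at 20.4 against 276 CPM in dual-enSERT-1, and gave 0 and 1 UMI in dual-enSERT-2. Col9a1 was called lower in Osr1-led cells, at 7.04 against 36.9 CPM and, from 3 and 11 UMIs, 19.9 against 32.9 CPM. The 16 cartilage genes summed to 280 against 987 CPM in dual-enSERT-1 and to 339 against 341 CPM in dual-enSERT-2, with 4 of the 16 at 0 in the Osr1-led cells of both libraries. In the cells outside the rule Sox9 was at 97.8 against 409 CPM and 77.8 against 254 CPM, and Isl1 at 69.2 against 4.97 CPM and 50.3 against 2.45 CPM. The part of these genes in the split was not tested.

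Plcb1, a phospholipase gene, was at 78.9 against 319 CPM in dual-enSERT-1 and 59.8 against 446 CPM in dual-enSERT-2. Dpyd, a pyrimidine catabolism gene, was at 32.4 against 150 CPM and 6.64 against 92.7 CPM, and Rasgef1b at 44.4 against 241 CPM and 53.1 against 215 CPM. Sorbs2 (log2 ratios -2.60 and -4.64), Chrdl1 (-2.25 and -4.95), Whrn (-2.16 and -4.64) and Stambpl1 (-2.14 and -2.58) were lower as well, and the first 3 of these gave no UMI in the 5 Osr1-led cells of dual-enSERT-2. Of the 8 genes named as higher in Osr1-led cells, Galntl6, Mdga2 and Emx2 lost the call with the highest cell left out, and Tbx2, Ncam2, Tbx3, Meis1 and Dcc kept it. All 8 genes named as lower kept it. Emx2, Mdga2 and Galntl6 gave no UMI in dual-enSERT-2 Osr1-led cells once the Xist-bearing cell was left out, and Dcc, then at 10.3 CPM, fell below the minimum level for a call.

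Hgf was lower in Osr1-led than in Osr2-led progenitors, at 15.5 against 54.3 CPM in dual-enSERT-1, a ratio of 0.285 (0.153 to 0.527), and at 66.9 CPM in cells with both. In dual-enSERT-2 Hgf gave no UMI in the 5 Osr1-led cells or in the 5 cells with both. It was at 26.9 CPM in the Osr2-led cells, with an upper limit of the Osr1-led to Osr2-led ratio of 1.13. In the cells outside the rule Hgf was at 21.3 against 33.6 CPM in dual-enSERT-1 but at 34.0 against 25.3 CPM in dual-enSERT-2, a ratio of 1.35 (0.779 to 2.24). The order of Hgf was thus not the same in both libraries outside the rule. Lum went the other way in dual-enSERT-1, at 93.7 CPM in Osr1-led and 39.1 CPM in Osr2-led progenitors, a ratio of 2.39 (1.46 to 4.16). Outside the rule Lum was at 42.8 against 16.2 CPM in dual-enSERT-1 and 3.24 against 6.12 CPM in dual-enSERT-2. Col12a1 was at 40.8 against 23.9 CPM in the progenitors of dual-enSERT-1, a ratio of 1.71 (0.888 to 3.61).

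**Figure D4:**
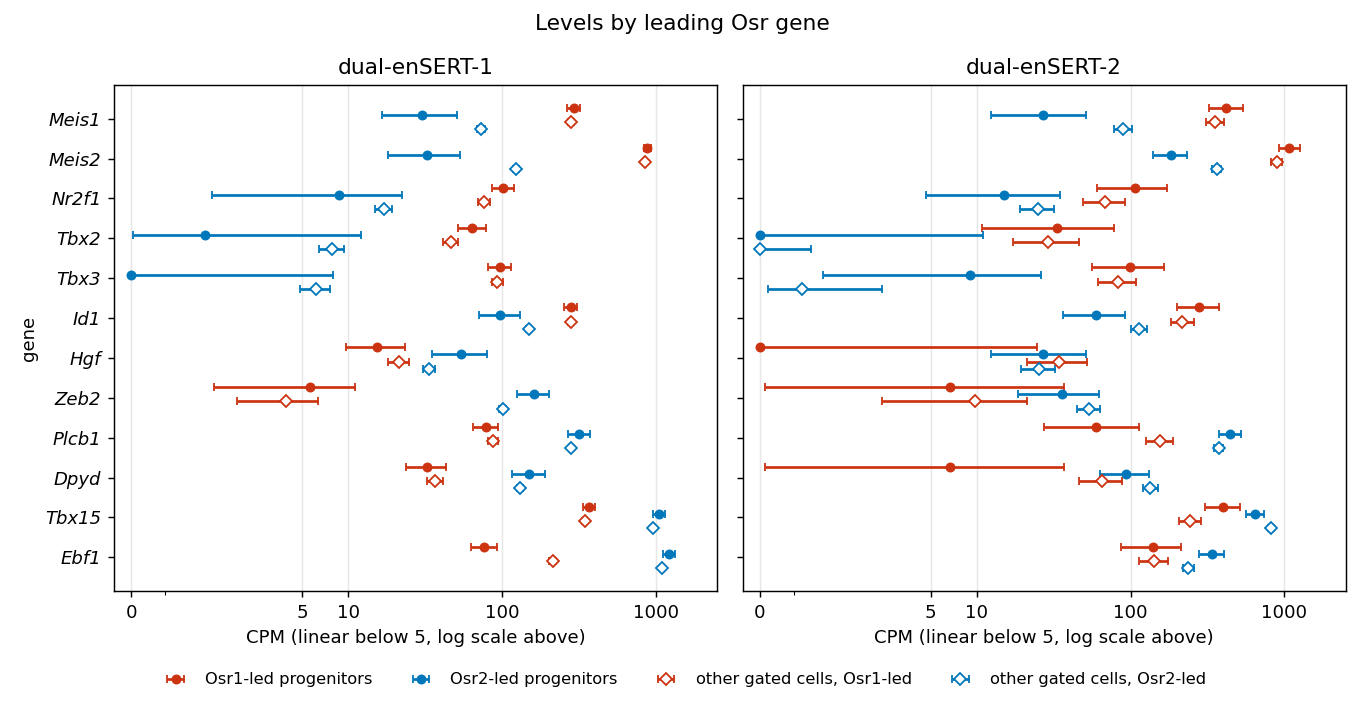
Pooled level (x axis, CPM, linear below 5 and log scale above) of 12 genes in Osr1-led and Osr2-led progenitors (filled) and in other gated cells split the same way (open) in each library, with exact Poisson 95% intervals as bars. Meis1, Meis2, Nr2f1, Tbx2, Tbx3 and Id1 lie to the right in Osr1-led cells and Zeb2, Plcb1, Dpyd, Tbx15 and Ebf1 in Osr2-led cells of both libraries, while Hgf changes its order among the open points of dual-enSERT-2.

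Both ZRS reporters were lower in the Osr progenitors than in the other gated cells. In dual-enSERT-1, eGFP gave 110 UMIs in 79 of 189 cells, at 41.4 CPM against 148 CPM in the other gated cells, a ratio of 0.279 (0.229 to 0.337), and 126 CPM in the gate-matched cells. In dual-enSERT-2 it gave no UMI in 22 cells against 28.1 CPM in the other gated cells and 14.7 CPM in the gate-matched cells. By the limit of 3 UMIs over the group it was at least 6.06-fold and 3.16-fold lower. The mCherry reporter was at 7.53 CPM from 20 UMIs against 55.5 CPM in dual-enSERT-1, a ratio of 0.136 (0.0827 to 0.209), and 27.9 CPM in the gate-matched cells. It was at 7.74 CPM from 5 UMIs, 4 of them in 1 cell, against 22.0 CPM in dual-enSERT-2, a ratio of 0.352 (0.114 to 0.823). The gate-matched cells of dual-enSERT-2 had 9.83 CPM of mCherry, a ratio of 0.787 (0.254 to 1.86), so no difference from them was detectable. With at least 5 Osr UMIs the mCherry ratio to the other gated cells of dual-enSERT-2 was 0.964, over 5 cells.

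The reporter levels of the Osr progenitors were set beside those of cell types outside the mesenchyme. In dual-enSERT-1, eGFP was at 36.4 CPM in erythroid, 27.3 in endothelial, 31.1 in ectoderm, 32.7 in muscle and 40.9 in macrophage cells. After thinning, 19.3% of Osr progenitors (13.9 to 25.6%) and 14.2% of erythroid cells (9.73 to 19.8%) had an eGFP UMI, and the shares before thinning were 41.8% and 43.9%. These intervals overlap, so by this share eGFP in the Osr progenitors of dual-enSERT-1 was not distinguishable from that in erythroid cells at this depth. The shares after thinning were 23.5% (20.9 to 26.2%) in gate-matched and 26.4% (25.6 to 27.2%) in other gated cells. Their intervals also overlap that of the Osr progenitors, so the share sets these cells apart from neither side, and no test was made. In dual-enSERT-2, eGFP was at 3.37 CPM in erythroid, 20.5 in endothelial, 1.64 in ectoderm, 5.26 in muscle and 45.6 in macrophage cells. The mCherry levels were 28.5 CPM in erythroid cells of dual-enSERT-1, where 86 of 115 UMIs came from 1 cell, 6.43 in endothelial, 7.27 in ectoderm, 10.8 in muscle and 182 in macrophage cells. In dual-enSERT-2 they were 3.02, 23.0, 1.64, 14 and 41.7 CPM in the same order.

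Shh itself, the gene that the ZRS controls, gave no UMI in the Osr progenitors of either library. It was at 7.88 CPM in the other gated cells of dual-enSERT-1 and 7.86 CPM in those of dual-enSERT-2, so it was at least 6.98-fold and 1.69-fold lower by the limit of 3 UMIs. In the gate-matched cells it was at 2.44 and 2.07 CPM. After thinning, Shh was seen in 2.50% and 2.47% of the other gated cells and in 0 of 187 and 0 of 22 Osr progenitors. By a limit of 3 counts this allows shares of up to 1.60% and 13.6% of cells with an Shh UMI at 5000 UMIs, which is no limit on cells that express the gene at a low level.

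**Figure D5:**
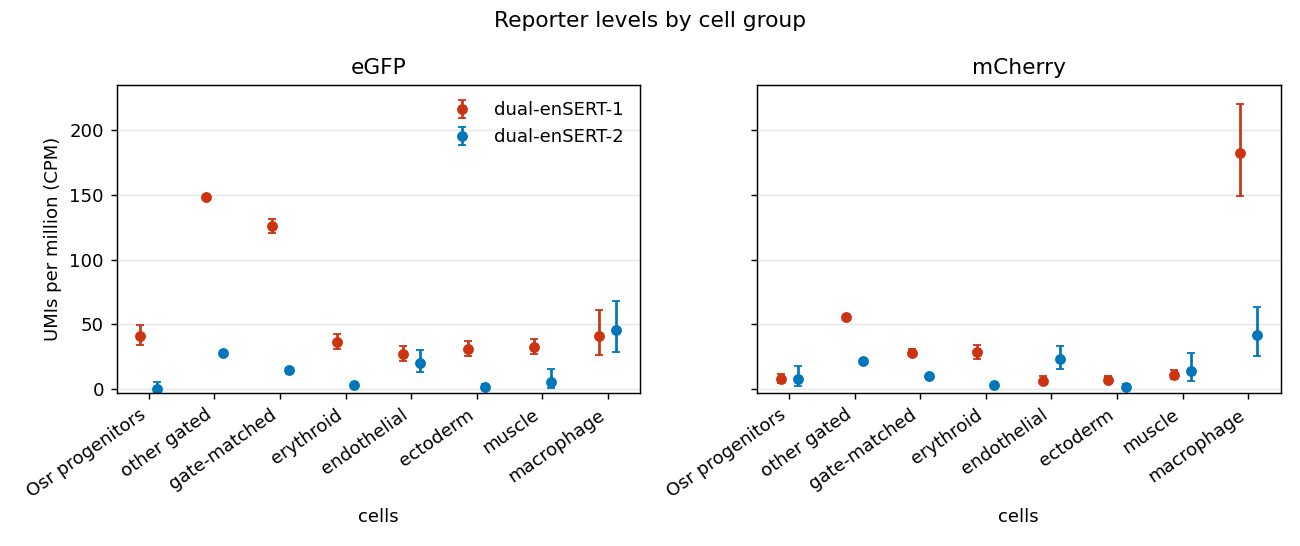
Pooled eGFP and mCherry levels (y axis, CPM) in the Osr progenitors, other gated cells, gate-matched cells and 5 cell types outside the mesenchyme gate (x axis) of each library, with exact Poisson 95% intervals as bars. In the Osr progenitors eGFP was at 41.4 CPM and 0, and mCherry at 7.53 and 7.74 CPM, all below the other gated cells of the same library.

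The Osr progenitors of the libraries were last set side by side, with the same ratio in the other gated cells of each library as the background of any library-wide difference. By a log2 ratio of at least 1 in size, 338 of 7527 genes were higher in dual-enSERT-1, or 4.49%, and 184 were lower, or 2.44%. In the other gated cells 137 and 34 of 7283 genes were past the same limits. Of the 338 and 184 genes, 111 and 30 were also past them in the other gated cells. Without the Xist-bearing cell 419 genes were higher and 185 lower, and with the highest cell of each gene left out the counts were 532 and 109. That setting takes 1 of 22 cells in dual-enSERT-2 but 1 of 189 in dual-enSERT-1, so it lowers the levels of dual-enSERT-2 more.

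Calb2, which encodes the calcium-binding protein calretinin, was at 63.6 CPM in the Osr progenitors of dual-enSERT-1 and gave no UMI in dual-enSERT-2, so it was at least 13.7-fold higher by the limit of 3 UMIs over the group. Its log2 ratio in the other gated cells was 2.86. C1qtnf7 was at 45.9 CPM, at least 9.89-fold higher, Pde3a at 35 CPM, at least 7.54-fold higher, and Frmpd4 at 24.5 CPM, at least 5.27-fold higher, with log2 ratios in the other gated cells of 2.58, 2.78 and 2.0. Tafa2 was at 78.7 against 1.55 CPM from 1 UMI, a ratio of 50.8 (9.03 to 2018). Cxcl14, a chemokine gene of mesenchyme and ectoderm, was at 67.4 against 1.55 CPM from 1 UMI, a ratio of 43.5 (7.72 to 1729). In the other gated cells Tafa2 and Cxcl14 had log2 ratios of 2.94 and 3.34. All 6 of these genes were thus higher in dual-enSERT-1 among the other gated cells as well.

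The 6 genes named as lower in dual-enSERT-1 were globins or came almost wholly from 1 cell. Hbb-bs, an adult type globin gene, was at 12.8 against 348 CPM, Hbb-bh1 at 6.02 against 144 CPM and Hba-x at 53.8 against 535 CPM, and their log2 ratios in the other gated cells were -2.47, -4.02 and -3.43. Globins were capped at 2% of UMIs by the gate, and 1287 of 6683 barcodes in dual-enSERT-2 and 205 of 17790 in dual-enSERT-1 were erythroid. The part of erythroid RNA in these ratios was not tested. Xist, Map3k7cl and Epha3 were at 0, 0 and 4.14 CPM in dual-enSERT-1 against 30.9, 21.7 and 92.8 CPM in dual-enSERT-2, where 20 of 20, 14 of 14 and 59 of 60 UMIs came from the Xist-bearing cell.

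The position of the main genes was read from GENCODE M39 on GRCm39. Osr1 lies on chromosome 12 from 9538061 to 9631513 and Osr2 on chromosome 15 from 35296196 to 35303673, both on the plus strand. Hgf lies on chromosome 5 from 16758041 to 16828178, Lum on chromosome 10 from 97400990 to 97408577 and Col12a1 on chromosome 9 from 79506268 to 79626135. Meis1 lies on chromosome 11 from 18829817 to 18969749 and Meis2 on chromosome 2 from 115693062 to 115896341. These are whole gene models, and 3′ UMI counts do not tell which exon or isoform a transcript came from.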

How the data were processed

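Hindlimb cells at embryonic day 11.5 were dissociated with collagenase II, loaded at 10000 cells and sequenced as 3′ single-cell libraries, per the labels' protocols. The deposited matrices hold raw UMI counts per gene and barcode. Cell Ranger 7.0.1 made the matrices, per the file headers, whereas version 3.1.0 of that tool, mm39 and Seurat 4 stand in the submitters' processing notes. How the authors filtered the barcode lists is not given in the labels or headers used here.

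Counts were summed over the cells of each group and library and expressed as CPM, with exact Poisson 95% intervals and exact conditional intervals for ratios, in Python 3.11.15 with NumPy 2.4.6, SciPy 1.17.1 and pandas 2.3.3. Scrublet in Scanpy 1.11.5 was run on filtered barcodes, and no cell was removed by it outside an alternative setting. The call rule used a pseudocount of 1 CPM and a minimum of 20 CPM. Its limit was a log2 ratio of 0.58 in both libraries, or 1 between libraries. Of this rule only the limit of 0.58 was run on simulated data, in each library alone. Those data were independent Poisson counts, so they do not cover genes whose UMIs come mostly from 1 cell. With 1 library per genotype no test or p-value was computed. Genes were named by the smaller log2 ratio of the 2 libraries, up to 15 a direction against other gated cells, 12 against gate-matched cells, 8 between Osr1-led and Osr2-led cells and 6 between libraries, and genes of the rule, reporters and unnamed gene models were left out. Some genes that this rule picks are not reported here. The members and the gene lists were chosen with earlier results of these data known. Erythroid cells had at least 20% globin UMIs, and endothelial, ectoderm, muscle and macrophage cells at least 2 UMIs of Cdh5, Epcam, Lbx1 or Csf1r, without Prrx1. Figures were drawn with matplotlib 3.10.9.

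Alternatives were Osr thresholds of 2 and 5, thinning to 5000 UMIs, another pseudocount and other minimum levels. Leaving out the highest cell of each gene, leaving out the Xist-bearing cell, and splitting cells outside the rule were chosen after seeing the data. The highest cell was left out of the Osr progenitors and of their Osr1-led and Osr2-led cells, but not of the other gated or gate-matched cells.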

Additional observations from a re-analysis of the deposited data

Results flagged for a closer look

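Cells outside the mesenchyme gate also carried Osr transcripts. In dual-enSERT-1, 787 of 5404 such barcodes had at least 3 Osr1 and Osr2 UMIs, or 14.6% (exact binomial 95% interval 13.6 to 15.5%), and in dual-enSERT-2 59 of 2933, or 2.01% (1.53 to 2.59%). These barcodes enter no comparison of the report. Of these barcodes, 570 and 49 held a UMI of Epcam, Cdh5, Lbx1 or Csf1r, 252 and 12 had fewer than 2 Prrx1 UMIs, and 17 and 13 had globins at 2% or more. Among muscle cells 14 of 157 and 5 of 20 reached 3 Osr UMIs, and none of 205 and 1287 erythroid cells did.

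Col9a1, Grem1 and Ung differed from the comparators in opposite directions in the 2 libraries, and the difference between libraries was not tested. Col9a1, a cartilage collagen gene, had a log2 ratio to the other gated cells of -1.81 in dual-enSERT-1 (12.4 against 46.0 CPM) and 0.96 in dual-enSERT-2 (24.8 against 12.2 CPM), and of -1.37 and 1.32 to the gate-matched cells. Grem1, the BMP antagonist of the limb bud, had log2 ratios of -1.17 (16.9 against 39.2 CPM) and 0.84 (91.3 against 50.6 CPM) to the other gated cells, and of -0.61 and 1.0 to the gate-matched cells. Ung, an S phase gene, had log2 ratios of -0.75 (31.2 against 53.3 CPM) and 0.59 (66.5 against 43.8 CPM) to the gate-matched cells. Over all tested genes, 12 had opposite directions of this size against other gated cells and 10 against gate-matched cells.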

How the results depend on the processing

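Of 154 values under alternative settings, 106 stayed within 1.5 times the count or within the interval and 48 moved. A reversal was defined only for the reporter ratios, and none of these reversed. Some values could not move. The Osr1-led contrast with at least 2 Osr UMIs kept the same cells, and leaving out the Xist-bearing cell leaves the reporter ratios of dual-enSERT-1 unchanged. No paired analysis was possible because each genotype has 1 library. Against the other gated cells, the 66 genes higher became 104 with at least 5 Osr UMIs, 134 with a minimum of 5 CPM, 326 with no minimum and 28 without the highest cell of each gene, and the 53 lower became 81, 166, 614 and 80, or 286 after thinning. Against gate-matched cells, the 121 higher became 194 with at least 5 Osr UMIs, 240 with a minimum of 5 CPM, 531 with no minimum and 70 without the highest cell, and the 84 lower became 361 after thinning, 213 and 633 with these minima. Between Osr1-led and Osr2-led cells, the 212 higher became 373 with at least 5 Osr UMIs, 527 with a minimum of 5 CPM, 984 with no minimum and 88 in cells outside the rule, and the 205 lower became 346, 579, 1105 and 95. Between libraries, the 338 higher became 674 with at least 5 Osr UMIs, 3800 after thinning, 1027 with a minimum of 5 CPM, 2882 with no minimum and 532 without the highest cell, and the 184 lower became 759, 1839, 449, 1296 and 109, or 122 both with at least 2 Osr UMIs and with a pseudocount of 5 CPM. The eGFP ratio to other gated cells moved from 0.279 to 0.186 after thinning in dual-enSERT-1, and from 0 to 0.251 with at least 2 Osr UMIs in dual-enSERT-2. The mCherry ratio moved from 0.136 to 0.220 after thinning in dual-enSERT-1, and from 0.352 to 0.964 with at least 5 Osr UMIs, 0 after thinning and 0.0752 without the highest cell in dual-enSERT-2. The share of gated cells moved from 1.53% to 2.51%, 0.686% and 1.02% in dual-enSERT-1, and from 0.587% to 1.12%, 0.133% and 0.0559% in dual-enSERT-2, with at least 2 Osr UMIs, at least 5, and after thinning. Thinning left 122 and 2 Osr progenitors and at least 5 Osr UMIs left 85 and 5, so fewer cells stand behind those values. After thinning the Osr1-led contrast could not be fitted in dual-enSERT-2, where no Osr1-led cell remained. Over the 22 Osr progenitors of dual-enSERT-2 1 UMI equals 1.55 CPM, and over the 189 of dual-enSERT-1 0.376 CPM, which bounds what low genes can show.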
